A study of Homo sapiens with 7 samples.

Results

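The loci described here are those of PAX3 and FOXO1, the genes whose joining makes the PAX3-FOXO1 fusion, examined for signal of the fusion near its own parent genes. Members were all sites of the raw count table with a centre inside or within 500 kb of the hg19 gene intervals, chr2:223064607-223163715 for PAX3 and chr13:41129804-41240734 for FOXO1. There were 15 such sites of 5782 in all (0.259%), 11 at PAX3 and 4 at FOXO1. The signal was measured by CUT&RUN, in which an antibody directs a nuclease to a protein on chromatin and the DNA released there is sequenced. The cells were Rh4, an established alveolar rhabdomyosarcoma line, in which the fusion is tagged with FKBP, a degron, and with HA, the target of the antibody. All 3 groups used here were crosslinked and had 2 libraries each, named A and B: DMSO as the control, 500 nM dTAG47 for 2 h, and 500 nM dTAG47 for 4 h. dTAG47 recruits a ubiquitin ligase to the FKBP part, so that the tagged protein is degraded. All groups, controls included, carry the tagged fusion, so there was no group without HA, and whether the line is 1 clone is not stated in the labels.

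PAX3 is a paired-box and homeodomain transcription factor of the neural crest and of muscle progenitors, and FOXO1 is a forkhead factor that acts downstream of insulin and growth factor signalling. In the t(2;13) translocation the PAX3 promoter and the exons for its DNA-binding domains are joined to the FOXO1 exons for the activation domain. The breaks lie within introns of each gene, and the rearranged copy keeps the upstream side of PAX3 and the downstream side of FOXO1. Both genes lie on the minus strand, so upstream means higher coordinates, and distances below run from the upper end of each interval, taken as the start site, to the centre of the site. Reads at a site cannot be assigned to the rearranged or the unrearranged copy of a locus. The labels name the HA tag with the fusion, and binding by untagged PAX3 or FOXO1 is not measured. Whether an unrearranged copy also carries the tag is not stated in the labels.

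No site lay at either start site, and none lay anywhere inside the 99.1 kb PAX3 interval. The nearest PAX3 site was 6.0 kb upstream of the start, and the 1 site inside FOXO1 was 76.5 kb downstream of its start. The 250 bases before each start are shown because the PAX3 promoter is the one that drives the fusion gene. They come from RefSeq on GRCh38.p14, minus strand, chr2:222298999-222299248 for PAX3 and chr13:40666642-40666891 for FOXO1, and are not to be compared by position with the hg19 sites. Capitals mark ATTA on either strand, the core that homeodomains bind.
PAX3: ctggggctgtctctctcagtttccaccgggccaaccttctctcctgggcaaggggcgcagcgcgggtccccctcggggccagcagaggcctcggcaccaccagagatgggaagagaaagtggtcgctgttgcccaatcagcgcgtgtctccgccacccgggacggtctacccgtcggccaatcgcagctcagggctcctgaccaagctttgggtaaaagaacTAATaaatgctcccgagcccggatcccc
FOXO1: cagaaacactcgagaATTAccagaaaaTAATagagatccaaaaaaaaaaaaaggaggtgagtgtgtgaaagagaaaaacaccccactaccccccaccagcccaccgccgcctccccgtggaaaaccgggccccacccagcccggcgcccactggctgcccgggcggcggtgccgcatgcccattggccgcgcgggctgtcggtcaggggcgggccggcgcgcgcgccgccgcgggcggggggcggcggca
The PAX3 window held 1 ATTA match, 28 bases before the start, and the FOXO1 window held 2, at 235 and 223 bases before the start. Of 35116 RefSeq promoter windows cut to the same 250 bases, 47.4% held at least 1. The paired-homeodomain palindromes TAATNNATTA and TAATNNNATTA, which overlap ATTA by construction, had 0 matches in both windows and occurred in 0.399% and 0.33% of all windows. The paired-domain core GTCACGC also had 0 matches in both, against 2.2% of all windows. With shares this low, 0 matches in both windows is the usual outcome and says nothing on binding. The sequences of the sites themselves were not analysed here.

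**Figure D1:**
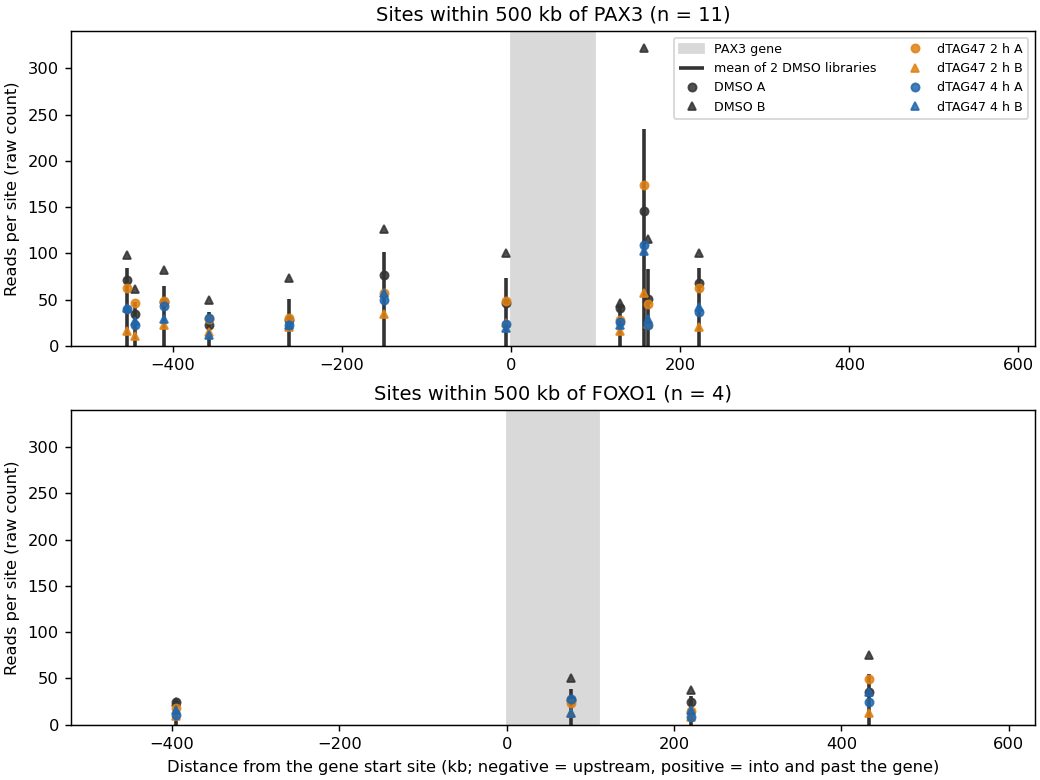
Raw read count of every site within 500 kb of PAX3 (top, n = 11) and FOXO1 (bottom, n = 4) against distance from the gene start in kb, with the gene in grey; stems are the DMSO mean and points the 6 libraries. PAX3 has a cluster of 3 sites from 129.3 to 162.5 kb past its start, the tallest with a DMSO mean of 234.0, and FOXO1 sites stay at 75 reads or fewer.

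Facts of the whole table bear on these values. Total reads in sites were from 110440 to 380057 per library, the DMSO library B being the deepest and the 2 h library B the shallowest, and these libraries gave the highest count at 15 and the lowest count at 12 of the 15 sites, ties included. How far these totals reflect sequencing depth or fusion lost from chromatin cannot be told apart. The 4 h columns differed from each other by no more than sampling noise over the table (chi-square per degree of freedom 1.01, where the DMSO pair gave 2.07 and the 2 h pair 1.93), and were counted as 1 sample in means. Within the loci they were least alike 357.2 kb upstream of PAX3 (30 and 12 reads) and inside FOXO1 (28 and 13). Changes are given below as log2 changes from DMSO in raw counts, with no scaling, or relative to the typical site, after TMM scaling that removes a change common to most sites. A site is named as called where edgeR's quasi-likelihood test gave an adjusted p under 0.05 over all 5575 tested sites.

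The table held more sites around PAX3 than around most of its sites, and an ordinary number around FOXO1. In windows of the same length as that of PAX3 (1099.1 kb) centred on each of the 5782 sites in turn, the median number of sites was 4 (quartiles 3 and 7). At least 11 sites, the PAX3 number, occurred in 9.06% of those windows, and at least 4, the FOXO1 number, in 60.8% of windows of 1110.9 kb. Windows centred on a site hold at least that site, and neighbouring windows share sites, so these values are a description. Of the PAX3 sites 7 lay upstream and 4 downstream of the gene. Of the FOXO1 sites 1 lay upstream, 1 inside and 2 downstream. In RefSeq gene order (GRCh38.p14) the next protein-coding genes are SGPP2 and FARSB beyond RNF228 upstream of PAX3 and EPHA4 downstream, and MRPS31, SLC25A15 and ELF1 upstream of FOXO1. EPHA4 is an ephrin receptor, SGPP2 a sphingosine phosphate phosphatase, FARSB a subunit of a tRNA synthetase and ELF1 an ETS transcription factor. No site was assigned to any of these genes.

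PAX3 sites were strong for this table. Their median DMSO mean was 73.0 reads, against 38.0 over all sites, and 10 of 11 lay above that median. The 4 FOXO1 sites had a median of 34.75, with 2 above. Over both loci single counts ran from 8 to 322, so that counting error alone is large at the weaker sites.

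The 4 sites downstream of PAX3 included the highest of both loci. At chr2:223006634-223007034, 156.9 kb past the start and 57.8 kb beyond the gene's end, the counts were 146 and 322 reads in the DMSO libraries, 174 and 57 in the 2 h libraries, and 109 and 103 reads in the 4 h columns. Its DMSO mean of 234.0 ± 124 (SD, n = 2) ranked 55 of 5782, in the top 0.951%, and its 4 h mean of 106.0 ranked 124. The 4 h columns lay below both DMSO libraries, as at 79% of all sites in raw counts. The 2 h library A lay above the DMSO library A. This site alone held from 21.9% to 27.7% of the reads of the 11 PAX3 sites in each library. Its log2 change relative to the typical site was −0.09 (SE 0.225) at 2 h and 0.00 (SE 0.225) at 4 h, close to the typical site at both times.

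A second site lay 5.6 kb from it, at chr2:223001009-223001409, 162.5 kb past the PAX3 start. It gave 51 and 116 reads in the DMSO libraries, 45 and 24 in the 2 h libraries, and 22 and 29 reads in the 4 h columns. Treated libraries lay below both DMSO libraries at both times, also as a share of each library's reads. Over all sites this held at 49.8% at 2 h and 79% at 4 h in raw counts. As a share it held at 32.4% and 34.4% of all sites. The log2 change relative to the typical site was −0.30 (SE 0.226) at 2 h and −0.58 (SE 0.241) at 4 h, with an edgeR adjusted p of 0.49 and 0.112. Whether these neighbours differ from each other was not tested.

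The 2 remaining downstream sites lay on either side of this pair. The site chr2:222941722-222942122, 221.8 kb past the start, gave 68 and 100 reads in the DMSO libraries, 62 and 20 in the 2 h libraries, and 37 and 42 reads in the 4 h columns. The site chr2:223034168-223034568, 30.2 kb beyond the gene and the nearest on this side, gave 41 and 46 reads in the DMSO libraries, 28 and 16 in the 2 h libraries, and 26 and 23 reads in the 4 h columns. At both sites every treated library lay below both DMSO libraries in raw counts. Over all sites this held at 49.8% for the 2 h libraries and at 79% for the 4 h columns. At the nearer site the DMSO libraries almost matched (B to A ratio 1.12), although over all sites the median B to A ratio was 1.71.

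Upstream, the side that the rearranged copy keeps, the site nearest to the PAX3 start was chr2:223169489-223169889, 6.0 kb before it and 135.3 kb from the next site. It gave 46 and 100 reads in the DMSO libraries, 48 and 25 in the 2 h libraries, and 24 and 19 reads in the 4 h columns. The 4 h columns lay below both DMSO libraries, as at 79% of all sites in raw counts, and below both 2 h libraries. The 2 h library A was level with the DMSO library A. The mean was 73.0 ± 38.2 (SD, n = 2) with DMSO, 36.5 ± 16.3 (SD, n = 2) at 2 h and 21.5 (n = 1) at 4 h, so that 4 h stood at 29.5% of DMSO, the lowest of the 15 sites. Without the DMSO library B it stood at 46.7%, and with the 4 h column A alone at 32.9%, when 2 other sites were lower. Relative to the typical site the log2 change was −0.03 (SE 0.224) at 2 h and −0.64 (SE 0.252) at 4 h. The 4 h change had an unadjusted p of 0.0157 and an edgeR adjusted p of 0.094, and it stood at the 13.6th percentile of all tested sites.

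The 4 h change at this site and at the one 162.5 kb past the start lay near the threshold. The adjusted p-values there count the 4 h columns as 2 libraries, although these differed by no more than sampling noise. With the 4 h columns summed as 1 library the changes were log2 −0.64 at the upstream site and −0.59 at the other. Scaling on total reads in sites, in place of TMM, gave log2 −0.77 with an edgeR adjusted p of 0.0387 at the upstream site and −0.71 with 0.0465 at the other. Leaving out the DMSO library A gave −0.78 with 0.0457 and −0.75 with 0.041. Leaving out the DMSO library B gave smaller changes, −0.43 with 0.498 and −0.34 with 0.603. Of all tested sites 10.1% were called lower with scaling on totals and 7.14% without the DMSO library A. Of all 15 alternatives, only 2 called these sites: scaling on totals and leaving out the DMSO library A. The adjusted p ran from 0.0387 to 0.783 at the upstream site and from 0.041 to 0.827 at the other. The change was below 0 in all 15 alternatives at both sites.

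The next upstream site, chr2:223313497-223313897 at 150.0 kb, was the second highest at PAX3 by DMSO mean. It gave 77 and 126 reads in the DMSO libraries, 57 and 34 in the 2 h libraries, and 49 and 57 reads in the 4 h columns. Every treated library lay below both DMSO libraries, as at 49.8% of all sites at 2 h and 79% at 4 h. The site chr2:223426094-223426494, at 262.6 kb, gave 28 and 73 reads in the DMSO libraries, 30 and 20 in the 2 h libraries, and 23 in both 4 h columns. Its 2 h library A lay just above the DMSO library A, so the groups overlapped at 2 h and did not at 4 h.

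The 4 most distant upstream sites lay between 357.2 and 454.6 kb from the PAX3 start. At chr2:223520762-223521162, at 357.2 kb, the counts were 23 and 50 reads in the DMSO libraries, 29 and 15 in the 2 h libraries, and 30 and 12 reads in the 4 h columns, and the groups overlapped at both times. At chr2:223574025-223574425, at 410.5 kb, the counts were 47 and 82 reads in the DMSO libraries, 48 and 22 in the 2 h libraries, and 43 and 29 reads in the 4 h columns. The last pair lay 9.5 kb apart. At chr2:223608629-223609029, at 445.1 kb, the counts were 34 and 61 reads in the DMSO libraries, 46 and 11 in the 2 h libraries, and 23 and 27 reads in the 4 h columns. At chr2:223618084-223618484, at 454.6 kb, the counts were 71 and 98 reads in the DMSO libraries, 62 and 16 in the 2 h libraries, and 40 and 41 reads in the 4 h columns. Of these 4 sites only the last was without overlap at 2 h, and the last 3 were without overlap at 4 h. In raw counts the treated libraries lay below both DMSO libraries at 49.8% of all sites at 2 h and 79% at 4 h.

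At FOXO1 the site inside the gene, chr13:41164019-41164419, gave 27 and 50 reads in the DMSO libraries, 24 and 13 in the 2 h libraries, and 28 and 13 reads in the 4 h columns. The 2 h libraries lay below both DMSO libraries, as at 49.8% of all sites in raw counts. The 4 h column A, however, lay just above the DMSO library A. Exons and introns were not assigned here, since no hg19 annotation was used. The mean was 38.5 ± 16.3 (SD, n = 2) with DMSO, 18.5 ± 7.78 (SD, n = 2) at 2 h and 20.5 (n = 1) at 4 h. Its DMSO mean ranked 2815 of 5782, near the middle of the table, and its relative log2 change was −0.11 (SE 0.304) at 2 h and 0.20 (SE 0.297) at 4 h.

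The 2 sites downstream of FOXO1, the side that the fusion gene keeps, differed in level. At chr13:41020354-41020754, 220.2 kb past the start, the counts were 25 and 37 reads in the DMSO libraries, 15 and 8 in the 2 h libraries, and 8 and 16 reads in the 4 h columns. Every treated library lay below both DMSO libraries there, as at 49.8% of all sites at 2 h and 79% at 4 h. The relative log2 change of −0.48 (SE 0.348) at 2 h was the lowest of the 15 sites at that time, with an edgeR adjusted p of 0.469. At chr13:40807946-40808346, 432.6 kb past the start, the counts were 35 and 75 reads in the DMSO libraries, 49 and 13 in the 2 h libraries, and 25 and 35 reads in the 4 h columns. There the groups overlapped at 2 h, and the 4 h column B equalled the DMSO library A. The upstream site, chr13:41635086-41635486 at 394.6 kb, had the lowest DMSO mean of both loci, with 25 reads in each DMSO library, 18 and 9 in the 2 h libraries, and 11 and 16 reads in the 4 h columns.

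Summed over its sites, each locus held fewer reads after dTAG47, by about as much as the table as a whole. The 11 PAX3 sites summed to 632 reads in DMSO library A and 1174 in B, to 629 and 260 in the 2 h libraries, and to 426 and 405 in the 4 h columns. The 4 FOXO1 sites summed to 112 and 187 reads in the DMSO libraries, 106 and 43 in the 2 h libraries, and 72 and 80 reads in the 4 h columns. Sums at 4 h were below both DMSO libraries at each locus, and at 2 h the library A came close to the DMSO library A. The PAX3 sum averaged 903.0 ± 383 (SD, n = 2) with DMSO, 444.5 ± 261 (SD, n = 2) at 2 h and 415.5 (n = 1) at 4 h, so the differences were of the order of the spread between libraries. The 4 h mean was 0.46 times the DMSO mean at PAX3 and 0.508 times at FOXO1, against 0.508 times over all 5782 sites. At 2 h the ratios were 0.492 and 0.498, against 0.559 over all sites. Without the DMSO library B the PAX3 ratio was 0.703 at 2 h and 0.657 at 4 h. Without the 2 h library A the ratio at 2 h was 0.288 at each locus. These sums were not tested, because the sites were chosen with earlier results known.

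As a share of all reads in sites, the loci stood at similar levels in all groups. PAX3 sites took 0.28% and 0.309% of the DMSO reads, 0.276% and 0.235% of those at 2 h, and 0.281% and 0.258% of those at 4 h. The exact 95% interval was 0.258% to 0.302% in the DMSO library A and 0.234% to 0.285% in the 4 h column B. This last interval and that of the 2 h library B (0.208% to 0.266%) lay below the interval of the DMSO library B (0.292% to 0.327%), and both overlapped that of the DMSO library A. FOXO1 sites took 0.0495% and 0.0492% of the DMSO reads, 0.0464% and 0.0389% of those at 2 h, and 0.0476% and 0.051% of those at 4 h, all with overlapping intervals. These intervals cover counting error only. The PAX3 sum was between 5.06 and 6.28 times the FOXO1 sum in every library.

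**Figure D2:**
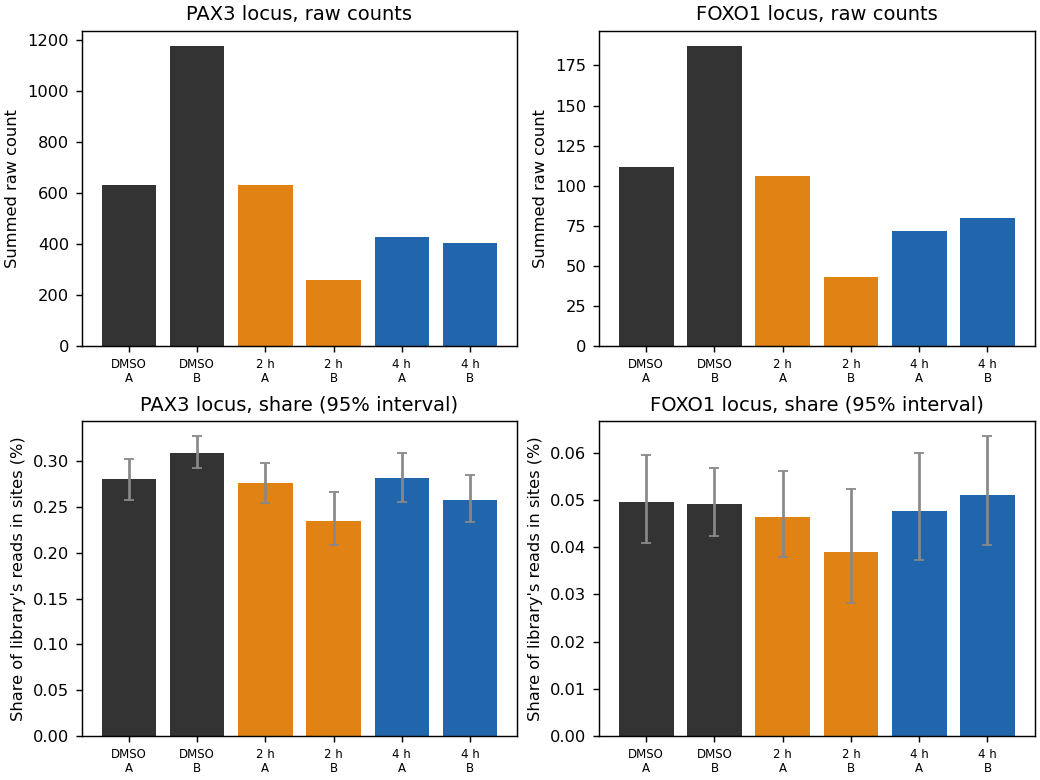
Summed count of the PAX3 sites (left) and FOXO1 sites (right) in each of the 6 libraries, as raw counts (top) and as a percent of the library's reads in all sites (bottom, with exact 95% intervals for counting error). The raw PAX3 sums at 4 h, 426 and 405, lie below the DMSO sums of 632 and 1174, while the shares at 4 h, 0.281% and 0.258%, lie near those with DMSO.

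Upstream and downstream of PAX3 the signal was shared almost equally. The 7 upstream sites summed to 326 and 590 reads in the DMSO libraries, 320 and 143 in the 2 h libraries, and 232 and 208 reads in the 4 h columns. The 4 downstream sites summed to 306 and 584, then 309 and 117, then 194 and 197. The ratio of the 4 h mean to the DMSO mean was 0.48 upstream and 0.439 downstream, and the difference was not tested.

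All 15 sites entered the tests across the 5575 sites that passed the filter on low counts, and none was called. In raw counts, fitted with no scaling, the log2 change was below 0 at 15 of 15 sites at each time, as at 97.4% of all tested sites at 2 h and 97.8% at 4 h. The median over the 15 sites was −1.01 at 2 h and −0.94 at 4 h, against −0.93 and −1.08 over all tested sites. At PAX3 the median was −1.01 at 2 h and −1.06 at 4 h, and at FOXO1 it was −0.97 and −0.89. By edgeR's quasi-likelihood test 0 of 15 sites were lower at an adjusted p under 0.05. Of all tested sites 1.04% were called lower at 2 h and 6.19% at 4 h, with the 4 h columns counted as 2 libraries. With a replicate block by column letter these shares of all tested sites were 0% at 2 h and 0.0179% at 4 h. At an unadjusted p under 0.05 there were 1 site at 2 h and 4 at 4 h, against 18.7% and 28.1% of tested sites. The standard errors of these changes ran from 0.573 to 0.786. DESeq2 and limma-voom also called 0 of the 15. Without the 2 h library A, 6 sites were called lower at 2 h, among them the highest PAX3 site (log2 −2.04, edgeR adjusted p = 0.0182; 0.0182 to 1 over its alternatives), where 37.3% of all sites tested in that fit were called lower. At 4 h, leaving out either of the 2 h libraries gave 3 sites called lower, those 6.0 kb upstream and 162.5 kb past the start of PAX3 and 220.2 kb past the start of FOXO1, and a fit of DMSO and 4 h alone gave the first 2 of them. In those fits 24.9% (2 h library A left out), 24.8% (B left out) and 24.4% (DMSO and 4 h alone) of all tested sites were called lower.

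At 12 of the 15 sites the raw counts of the 4 h columns were each lower than either DMSO count, as at 79% of all sites. For the 2 h libraries this held at 8 of 15, against 49.8%. The reverse, treated counts above either DMSO count, held at 0 of 15 at each time, against 0.588% of all sites at 2 h and 1.04% at 4 h. In shares of each library's reads, 2 sites lay below at 4 h (34.4% of all sites) and 4 at 2 h (32.4%), and 0 lay above (19.2% and 15.4%). Those 2 sites at 4 h were the one 6.0 kb upstream of PAX3 and the one 162.5 kb past its start. In raw counts both shares lie near those of the table.

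Relative to the typical site, the 15 sites lay near 0. Their median log2 change was −0.05 at 2 h (range −0.48 to 0.22) and 0.16 at 4 h (range −0.64 to 0.31), against 0.01 and 0.02 over all tested sites. The change was below 0 at 10 of 15 sites at 2 h and at 4 of 15 at 4 h, against 49.5% and 48% of tested sites. None was called in either direction by edgeR's quasi-likelihood test, where 4.07% of tested sites were called lower and 2.49% higher at 2 h, and 6.73% and 4.72% at 4 h. An unadjusted p under 0.05 was reached by 0 sites at 2 h and 2 at 4 h (6.0 kb upstream and 162.5 kb past the start of PAX3), against 19.8% and 25.4% of tested sites. With a standard error between 0.207 and 0.359, the interval at the strongest site ran from −0.45 to 0.46 at 4 h, so a moderate difference from the table in either direction was not detectable there. The other 13 sites had a relative change at 4 h within the middle 50% of all tested sites (−0.34 to 0.34). The median of the 15 sites at 4 h was 0.04 with scaling on totals, 0.25 on the weakest 10% of sites and −0.87 on the 20 highest sites, where the median of all tested sites was −0.11, 0.10 and −1.01. At 2 h these medians were −0.15, 0.08 and −0.93 for the 15 sites and −0.10, 0.13 and −0.87 for all, so the sign of the loci's change rests on the scale, and their distance from the median of all tested sites was at most 0.15 under each scaling.

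**Figure D3:**
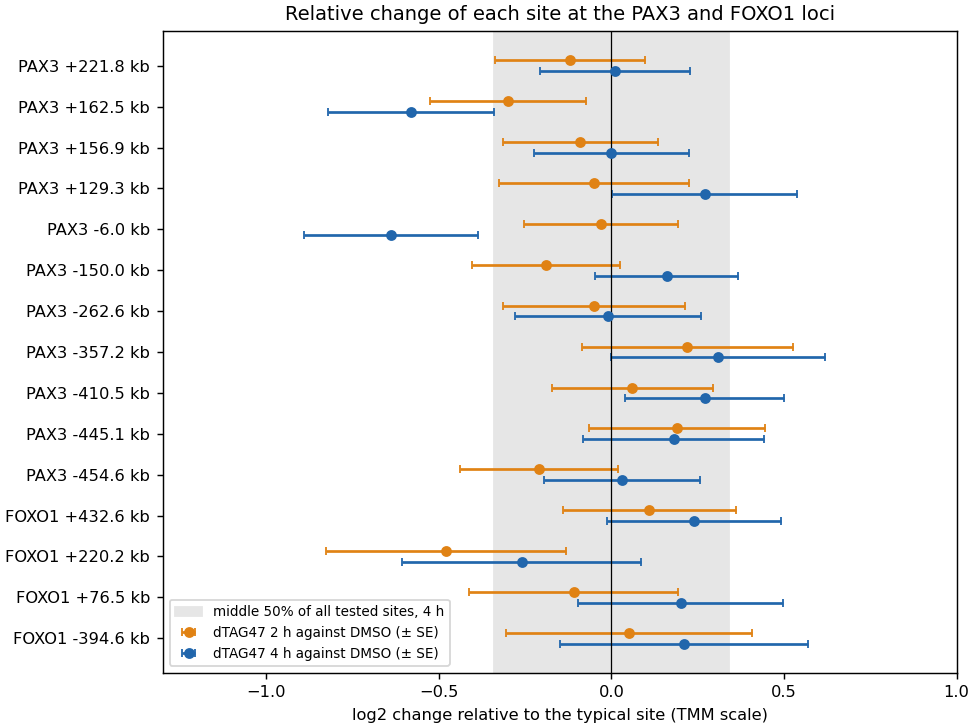
Log2 change of each of the 15 sites relative to the typical site (x axis, TMM scale, points ± SE) at 2 h and 4 h against DMSO, with the middle 50% of all tested sites at 4 h in grey. At 4 h the sites 6.0 kb upstream and 162.5 kb past the PAX3 start lie to the left of the grey band at −0.64 and −0.58, and the other 13 lie within it.

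**Figure D4:**
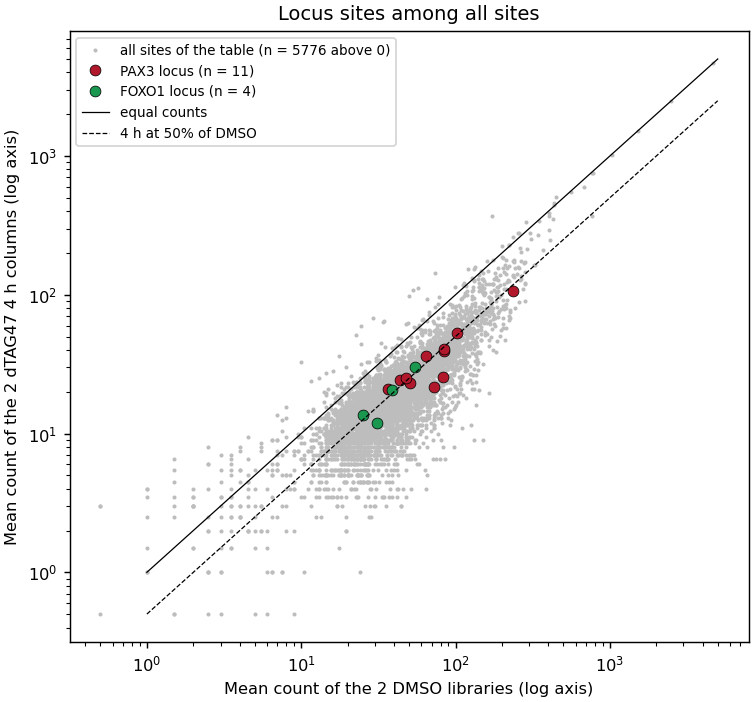
Mean count of the 4 h columns against the mean DMSO count on log axes for the 5776 sites above 0 in both (grey), with the 11 PAX3 sites in red and the 4 FOXO1 sites in green. The marked sites sit in the body of the cloud near the line of 50%, and the PAX3 site with 234.0 DMSO reads is the farthest right.

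Between 2 h and 4 h no site of either locus was called, as at 0% of tested sites on either scale. Relative to the typical site the median log2 change from 2 h to 4 h was 0.13 over the 15 sites, with a range from −0.61 to 0.36. The lowest was at the site 6.0 kb upstream of PAX3 (−0.61, SE 0.28, unadjusted p = 0.0371, edgeR adjusted p = 0.843), where reads went from 48 and 25 at 2 h to 24 and 19 at 4 h. The 2 h and 4 h comparisons share the DMSO libraries, so their changes are not independent of each other. In this direct comparison, 1 of the 15 sites had an unadjusted p under 0.05 on the relative scale, and 0 in raw counts, against 5.76% and 0.197% of tested sites; DESeq2 and limma-voom called 0 as well.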

How the data were processed

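The labels list 7 CUT&RUN libraries of Rh4 cells; the 1 without crosslinking was not analysed here. The authors' deposited table gives each site's raw read count, without normalization, in 6 columns, with 0 further columns of values. Tools named in the submitters' processing notes are deepTools, DiffBind, DESeq2, Genrich 0.6.1, Bowtie2 and Trimmomatic 0.32, with hg19; what each did, how sites were chosen and whether duplicates were removed is not given in the sources used here. Sites end 400 bases after their start, and coordinates are printed as in the file, which leaves a doubt of 1 base. The DMSO columns were assigned to the crosslinked group, the only DMSO group with 2 samples; letters are not tied to replicate numbers.

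Sites kept by filterByExpr (minimum count 10, minimum total 15) numbered 5575; 207 were removed and 15 of 15 members passed. Counts were tested with edgeR 4.0.16 (R 4.3.3), 1 quasi-likelihood fit of 6 columns by treatment alone (3 residual degrees of freedom), Benjamini-Hochberg over all tested sites at 0.05, once with equal library sizes (raw) and once with TMM (relative). The fit kept the 4 h columns separate. Standard errors are the change over the square root of F. They rest largely on spread pooled over all tested sites, not on each site's own 3 residual degrees of freedom. The interval of a change is at 95% and uses the same pooled spread. Libraries are not stated to be separate cultures, so p-values measure only the spread between them, which may be technical. Alternatives were no filter, DESeq2 1.42.0, other scalings, limma-voom (limma 3.58.1), a fit of 2 groups at a time, a replicate block, 1 library at 4 h, each library left out, and windows of 250 kb and 1 Mb. Every member is named. Members, lists and alternatives were chosen with earlier results of these data known. Share intervals are exact binomial (Clopper-Pearson, scipy 1.17.1).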

Additional observations from a re-analysis of the deposited data

How the results depend on the processing

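Of the 15 sites, the number called at 4 h on the relative scale (0) became 2 when scaled on totals in sites (10.1% of all tested sites called lower, 6.73% with TMM), and in raw counts (0) it became 2 when only 2 groups were fitted (24.4%, against 6.19%); the cause was not tested. Leaving out 1 library gave from 0 to 2 relative calls and from 0 to 3 raw calls at 4 h, and from 0 to 6 raw calls at 2 h, the 6 without the 2 h library A (37.3% of all tested sites, against 1.04%); the lone library was then assumed to vary like the others. Relative calls at 2 h and both sets of calls between 4 h and 2 h were 0 under all alternatives run. With a replicate block by column letter the calls were 0 in all 6 comparisons. The A minus B differences correlated at −0.201 (DMSO and 2 h), 0.0118 (DMSO and 4 h) and −0.00935 (2 h and 4 h). Because letters are not tied to replicate numbers, these values cannot show whether libraries were paired. In raw counts no alternative changed the sign of a site's change; on the relative scale 33 of 225 alternative values at 2 h and 29 of 225 at 4 h changed sign, none of them called.

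The ratio to DMSO of the summed counts rests on the scale. As a share of reads in sites it was 0.868 at 2 h and 0.917 at 4 h for PAX3, and 0.864 and 0.998 for FOXO1. Relative to the 20 highest sites it was 0.51 at 2 h and 0.483 at 4 h for PAX3, and 0.516 and 0.533 for FOXO1. Leaving out 1 library gave from 0.288 to 0.703 at 2 h and 0.354 to 0.657 at 4 h for PAX3, and from 0.288 to 0.709 and 0.406 to 0.679 for FOXO1. Within 250 kb there were 6 PAX3 and 2 FOXO1 sites, and within 1 Mb 15 and 7.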
